A study of Mus musculus with 10 samples.

Results

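The insulin-like growth factor (IGF) family was described in mouse mammary tumours through 10 genes of the 26063 in the count table. They are the ligands Igf1 and Igf2, the receptors Igf1r and Igf2r, and the binding proteins Igfbp2, Igfbp3, Igfbp4, Igfbp5, Igfbp6 and Igfbp7. The genes were chosen by family name and on the level of Igfbp5, which was the most counted gene in 2 tumours. The level of Igfbp5 is therefore given as a description, with no test. Bulk RNA sequencing covered 10 tumours from female FVB/N mice, 5 of genotype EIC/WT (EIC) and 5 of genotype 16IC/WT (16IC). Doxycycline (2 mg/ml) was given to every mouse of both genotypes, and each tumour was flash frozen when its mouse reached end point. The labels spell out neither genotype name and give no promoter for a transgene and no age, while the series title names HER2∆16, a splice form of the receptor HER2, and ENPP1. Each tumour came from its own animal, and the numbers 1 to 5 within a genotype only name tumours and pair nothing.

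IGF-I and IGF-II are secreted growth factors that signal through the receptor tyrosine kinase IGF1R, whereas IGF2R, the cation-independent mannose 6-phosphate receptor, takes up IGF-II for breakdown in lysosomes. Binding proteins hold the ligands in the circulation and around cells, and can limit or prolong their access to IGF1R. In the mammary gland, IGF-I made by the stroma acts on ductal growth, and IGFBP5 is known for its rise when the gland regresses after lactation.

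Libraries held 14813940 to 16947400 counts, with at least 1 count for 19305 to 21894 genes. Levels below are CPM, counts relative to the library's total, scaled by TMM, a normalization for library composition. Luminal epithelial markers (Epcam, Krt8, Krt18, Krt19, Cdh1, Cldn3 and Cldn7) summed to 3892 to 6410 CPM in every tumour although Krt19 was at 0 in 16IC 4. The basal and myoepithelial markers Krt5, Krt14 and Krt17 were each at 0 in at least 1 tumour. In bulk tissue, fewer cells of a type and less RNA per cell cannot be told apart.

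Igfbp5 and Igfbp2 are neighbours on chromosome 1 (GRCm38). Igfbp5 lies at chr1:72857932-72874884 on the minus strand and Igfbp2 at chr1:72824503-72852474 on the plus strand, so that their 3′ ends face each other across 5457 bases. They were the most abundant and the most variable binding protein of these tumours. For that contrast the 250 bases upstream of 1 RefSeq start of each (GRCm38.p6) are shown, 5′ to 3′ along the gene's own strand. The windows are chr1:72874866-72875115 for Igfbp5 and chr1:72824230-72824479 for Igfbp2. The last 19 bases of the Igfbp5 window lie inside the gene as GENCODE draws it, and those of the Igfbp2 window shown do not. A second Igfbp2 entry, with its window at chr1:72825137-72825386 inside the gene, is not shown. Capitals mark matches on either strand to any of 3 motifs. The TATA box was searched as TATAAA. The letters of the GC box were GGGCGG. For the CCAAT box, the name gives the letters searched.
Igfbp5: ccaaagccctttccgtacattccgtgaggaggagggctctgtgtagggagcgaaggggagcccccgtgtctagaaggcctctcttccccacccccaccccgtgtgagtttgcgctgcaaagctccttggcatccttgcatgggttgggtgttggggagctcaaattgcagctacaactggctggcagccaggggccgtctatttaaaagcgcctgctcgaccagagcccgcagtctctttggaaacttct
Igfbp2: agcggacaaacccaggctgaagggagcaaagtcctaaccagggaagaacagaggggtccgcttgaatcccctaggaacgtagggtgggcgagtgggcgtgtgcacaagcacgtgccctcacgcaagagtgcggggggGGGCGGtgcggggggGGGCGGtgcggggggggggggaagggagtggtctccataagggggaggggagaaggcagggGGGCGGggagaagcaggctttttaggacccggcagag

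The Igfbp5 window held none of the 3 motifs, which says only that these letters are absent from these bases. The Igfbp2 window shown held 3 GC boxes, beginning 113, 98 and 37 bases before the start. The window of the second Igfbp2 entry held none of the 3 motifs. Of 32851 RefSeq windows of the same length, 12.4% held a TATA box, 32.7% a GC box and 33.8% a CCAAT box. The GC content was 58.8% for Igfbp5, and for Igfbp2 67.2% in the window shown and 56.4% in the second. The median over all windows was 52.4%. All 10 genes had at least 1 entry, 14 in all. Among the other binding proteins, Igfbp4 had a TATA box beginning 28 bases before its start, Igfbp6 had a TATA box on the opposite strand beginning 148 bases before its start and 2 CCAAT boxes, and Igfbp7 had 4 GC boxes. Both receptor genes had GC boxes, 2 in Igf1r and 3 in Igf2r.

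Igfbp5 was the highest binding protein in all 10 tumours, so no other binding protein replaced it. In EIC tumours 1 to 5 it stood at 8360, 10014, 5383, 6150 and 11000.2 CPM. In 16IC tumours 1 to 5 it stood at 11527, 20946, 5923, 5247 and 28349 CPM. The highest levels belonged to 16IC 5 and 16IC 2, while 16IC 4 and 16IC 3 were at the low end with EIC 3 and EIC 4, and the groups overlapped. The log2 difference of 16IC over EIC was 0.82, a value that fell to 0.41 without 16IC 5.

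Igfbp5 made up 0.517% (16IC 4) to 2.88% (16IC 5) of all counts of a library. It ranked 1 by counts in 16IC 2 and 16IC 5 and between 2 and 5 in the other 8 tumours. The most counted gene was Csn3 (kappa-casein, a milk protein) in 5 of those 8, Spp1 (osteopontin, a secreted phosphoprotein) in EIC 1 and EIC 2, and Eef1a1 (a translation elongation factor) in EIC 4. In the 16IC tumours not led by Igfbp5, namely 16IC 1, 16IC 3 and 16IC 4, Csn3 led in each. Per length, in the deposited FPKM (fragments relative to transcript length and library total), Igfbp5 ranked from second among all genes in 16IC 5 to the 32nd place in 16IC 3 and 16IC 4.

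Genes can be compared with each other only per length, and within a tumour. By median FPKM over the 10 tumours the order was Igfbp5 (1498), Igfbp7 (146), Igfbp3 (97.7), Igfbp4 (52.8), Igfbp2 (41.3), Igf2r (29.1), Igfbp6 (9.13), Igf1r (3.04), Igf1 (1.57) and Igf2 (0). Igfbp5 was above Igfbp7 in 10 tumours, and Igfbp7 above Igfbp3 and Igfbp3 above Igfbp4 in 9 each. Igfbp4 was above Igfbp2 in only 5 tumours and Igfbp2 above Igf2r in 6, so these neighbours had no fixed order. Igf2r was above Igfbp6 in 10 tumours, Igfbp6 above Igf1r in 9, and Igf1r above Igf1 in 8.

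**Figure D1:**
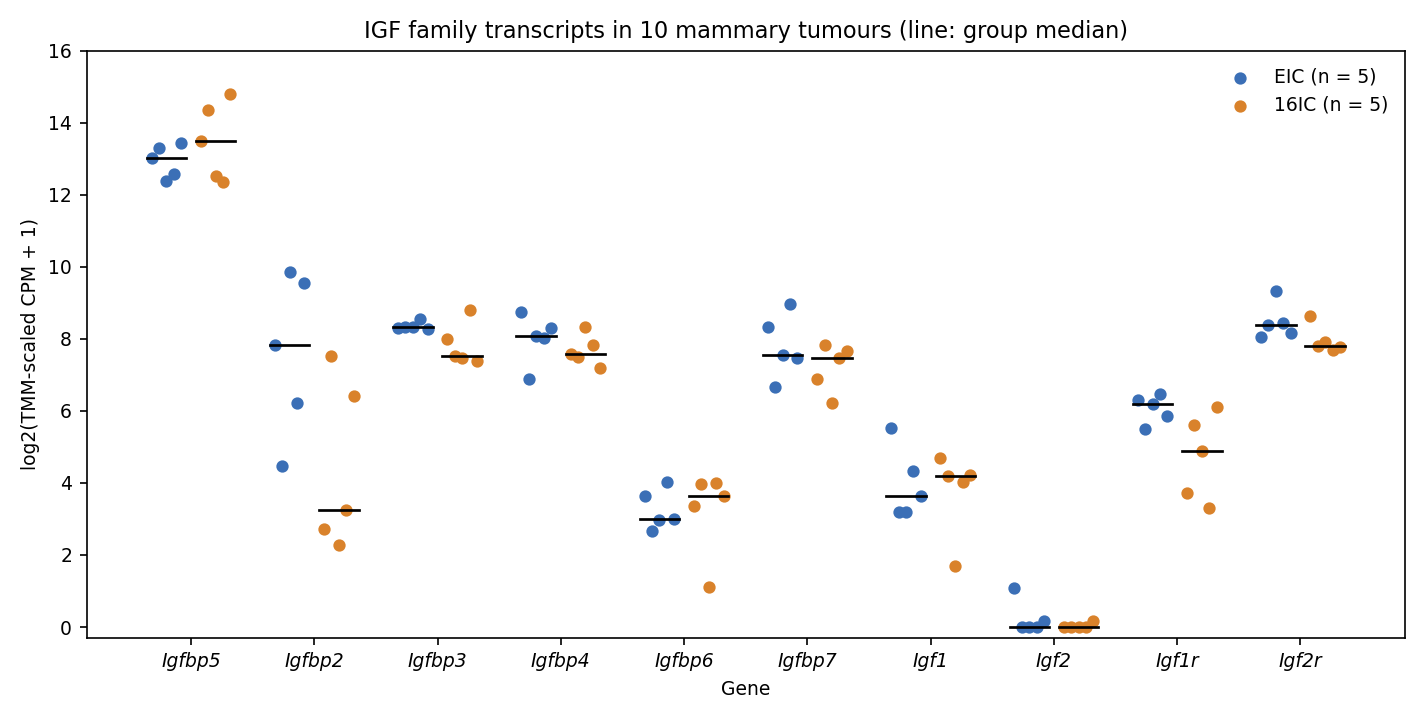
Level of each IGF family gene in each tumour, as log2(TMM-scaled CPM + 1) on the vertical axis, with EIC tumours in blue, 16IC tumours in orange and a line at each group's median (n = 5). CPM is not per length, so heights compare tumours and not genes; Igfbp2 spans the widest range, Igfbp5 lies at or above 5247 CPM in every tumour, and Igf2 lies at or near 0.

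What differed between tumours was the binding protein in the second place. By FPKM it was Igfbp7 in 6 tumours (EIC 1, EIC 4, 16IC 1, 16IC 2, 16IC 4 and 16IC 5), Igfbp2 in EIC 3 and EIC 5, Igfbp3 in EIC 2 and Igfbp4 in 16IC 3. Igfbp5 exceeded the second binding protein 1.79-fold in EIC 3, where Igfbp2 came closest to it, and 28.4-fold in 16IC 5. By CPM, which favours long transcripts, Igfbp5 also led in 10 of 10 tumours, while the second place went to Igfbp3 and Igfbp7 in 3 tumours each and to Igfbp2 and Igfbp4 in 2 each.

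The share of Igfbp5 in the summed FPKM of the 6 binding proteins was 70.2%, 88.0%, 52.0%, 61.3% and 71.6% in EIC tumours 1 to 5. It was 89.2%, 89.7%, 83.7%, 71.1% and 93.9% in 16IC tumours 1 to 5. The lowest shares were those of EIC 3 and EIC 4, the highest that of 16IC 5, and the groups overlapped. The mean was 68.6% ± 13.4 in EIC and 85.5% ± 8.84 in 16IC (SD, n = 5 each). The median over tumours was 77.7%, or 89.4% when CPM replaced FPKM. This share rests on the values that chose the genes and was not tested.

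Set aside Igfbp5, and the makeup of the remaining 5 binding proteins differed from tumour to tumour. Igfbp2 took 60.7% of their FPKM in EIC 3 and 55.7% in EIC 5, but 1.10% to 1.31% in 16IC 1, 16IC 3 and 16IC 4. Igfbp7 took the most in EIC 4 (64.4%) and the least in EIC 3 (18.9%). Igfbp3 took 45.1% in EIC 2 and 39.7% in 16IC 4, its highest shares, and Igfbp4 took 37.6% in 16IC 3. Igfbp6 stayed between 0.543% and 3.78%. In summed CPM these 5 genes came to 1268 ± 440 in EIC and 682 ± 136 in 16IC (SD, n = 5 each), with a range of 564 (EIC 2) to 1708 (EIC 3).

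**Figure D2:**
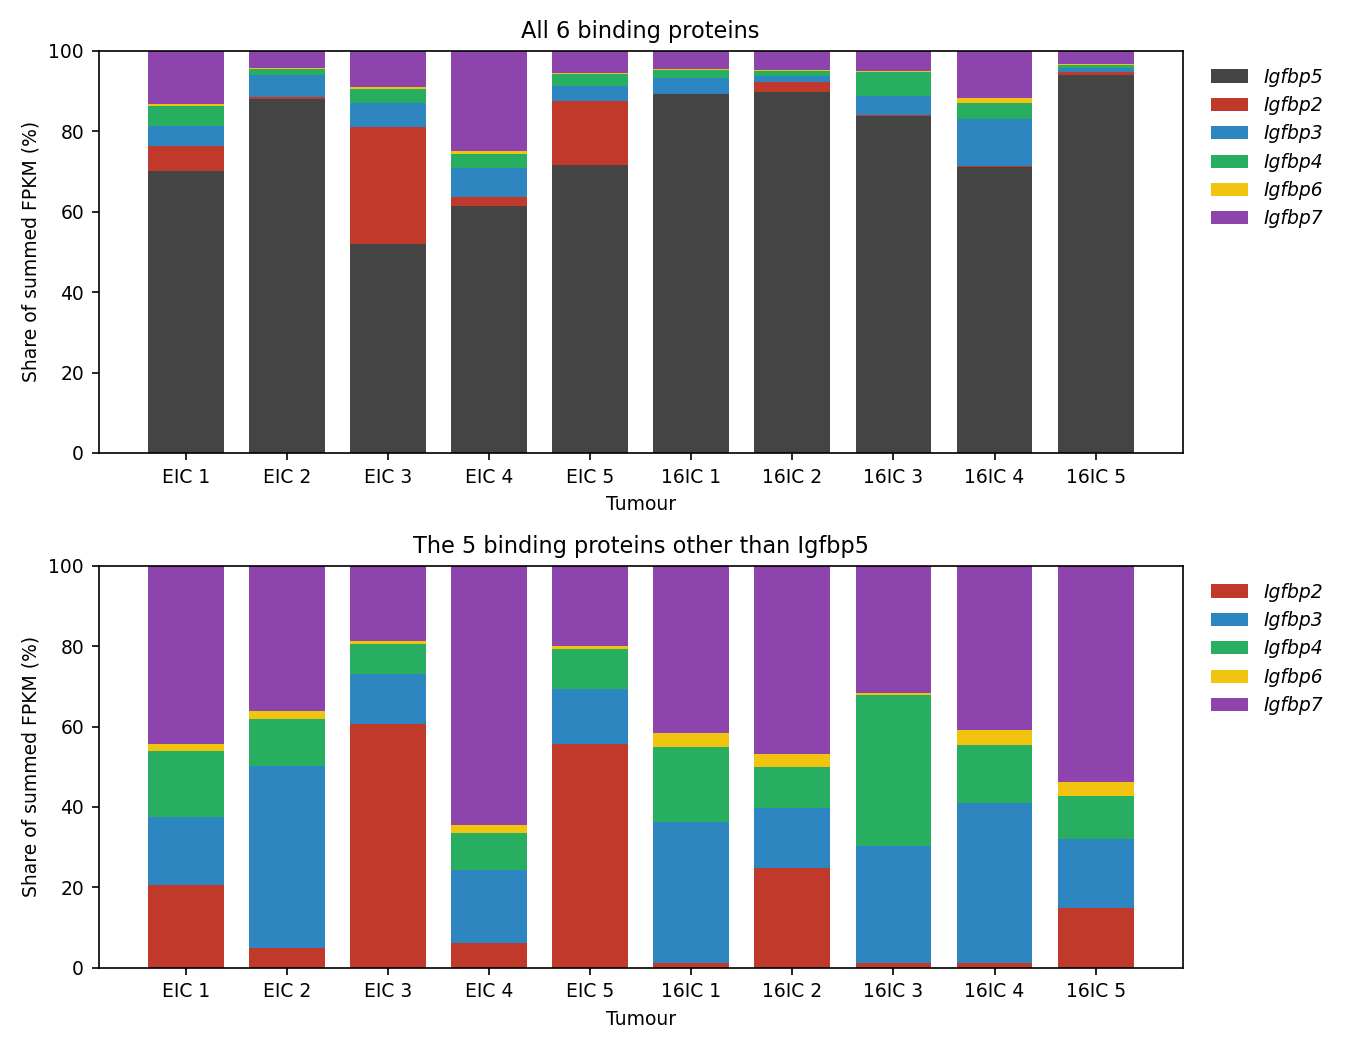
Share of each binding protein in summed FPKM (percent, vertical axis) for each tumour, for all 6 binding proteins (upper panel) and for the 5 other than Igfbp5 (lower panel). Igfbp5 (dark grey) takes 52.0% to 93.9% of every bar in the upper panel, and the lower panel shows Igfbp2 (red) leading in EIC 3 and EIC 5 and Igfbp7 (purple) in EIC 4.

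Between genotypes, no gene passed an adjusted p of 0.05 in edgeR's quasi-likelihood test (0.0% of 14915 tested), while 1958 (13.1%) had an unadjusted p under 0.05. DESeq2 called 356 of 16838 genes (2.11%), and 385 tested genes (2.58%) had groups without overlap. Of the 10 family genes 9 passed the filter on low counts, all but Igf2. Of these, the 8 other than Igfbp5 were tested. None of the 8 was called by edgeR or DESeq2, had an unadjusted edgeR p under 0.05 or had groups without overlap. Among the 8, Igfbp6 was higher in 16IC and the other 7 lower, with a median log2 difference of -0.48. Over all genes tested, 7114 were higher and 7801 lower, with a median of -0.02. Exact permutation p values below are two-sided over every arrangement of the tumours into groups of 5, for which the smallest possible value is 0.00794, and are not adjusted for the 29 genes so tested, 8 of the family and 21 of the lists below.

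Igf1, the main local ligand, was low in all tumours. It stood at 45.4, 8.20, 8.21, 19.3 and 11.4 CPM in EIC 1 to 5, and at 25.1, 17.2, 2.25, 15.2 and 17.5 CPM in 16IC 1 to 5. EIC 1 was the highest and 16IC 3 the lowest, a 20.2-fold range, and the groups overlapped. 16IC differed from EIC by -0.26 on the log2 scale (SE 0.62, edgeR adjusted p = 0.868, exact permutation p = 0.770). The difference was 0.39 without EIC 1 and 0.02 without 16IC 3, so its sign rested on either tumour. The antisense gene Igf1os overlaps the gene but none of its exons.

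Igf2, the fetal growth factor expressed from the paternal allele, had 19 counts in EIC 1, 2 in EIC 5, 2 in 16IC 5 and 0 in the other 7 libraries. Its level was 1.10 CPM in EIC 1. Elsewhere it was under the 3 counts that a count of 0 allows. That floor came to 0.174 to 0.216 CPM in these libraries and covers counting error only. Igf2 was too low to test, and its value is uncertain. In GENCODE M21, 62.8% of its exonic bases overlap Gm49394 on the same strand. Gm49394 has no entry among the 26063 genes analysed, and whether the overlap touched the counting was not tested. H19, the maternally expressed neighbour 72622 bases away on chromosome 7, was counted in every tumour, from 0.547 CPM (16IC 3) to 61.9 CPM (EIC 1).

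Igf1r, the signalling receptor (chr7:67952827-68233668), was at 78.7, 44.1, 72.4, 87.3 and 57.5 CPM in EIC 1 to 5. It was at 12.2, 48.2, 28.8, 8.84 and 68.2 CPM in 16IC 1 to 5. The tumours 16IC 4, 16IC 1 and 16IC 3 lay below every EIC tumour, whereas 16IC 2 and 16IC 5 lay within the EIC range. The log2 difference was -1.03 (SE 0.50, 95% interval -2.14 to 0.08) and did not pass edgeR's test (adjusted p = 0.402). The unadjusted exact permutation p was 0.0476. Within 16IC the highest level was 7.71 times the lowest, against 1.98 times within EIC.

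Igf2r, the clearance receptor (chr17:12682406-12769664), was at 263, 334, 640.1, 347 and 288 CPM in EIC 1 to 5. It was at 398, 224, 240, 205 and 219 CPM in 16IC 1 to 5. EIC 3 stood above its group and 16IC 1 above its own, and 16IC 1 was the only 16IC tumour inside the EIC range. On the log2 scale 16IC differed by -0.54 (SE 0.28, 95% interval -1.16 to 0.08, edgeR adjusted p = 0.420, exact permutation p = 0.0952). It was -0.26 without EIC 3. Without 16IC 1 it was -0.74 and the groups no longer overlapped, as for 3.40% of all genes tested. Per length, Igf2r exceeded Igf1r in every tumour, 5.79-fold (16IC 5) to 59.0-fold (16IC 1), with a median ratio of 11.3.

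Igfbp2, a binding protein with a cell-attachment motif, had the widest range of the family. It stood at 225, 21.2, 926, 72.9 and 746 CPM in EIC 1 to 5, and at 5.62, 183, 3.89, 8.50 and 84.2 CPM in 16IC 1 to 5. The 238-fold range from 16IC 3 to EIC 3 crossed genotypes, since EIC 2 was low and 16IC 2 and 16IC 5 lay inside the EIC range. The log2 difference was -2.80 (SE 1.28, 95% interval -5.63 to 0.03), with an edgeR adjusted p of 0.383 and an exact permutation p of 0.0635. Leaving out single tumours moved it between -3.96 (without 16IC 2) and -2.24 (without EIC 3).

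Igfbp3, the main carrier of IGFs in blood, was nearly level in EIC, at 313, 322, 320, 371 and 311 CPM in EIC 1 to 5. It was at 254, 184, 175, 441 and 167 CPM in 16IC 1 to 5. Below every EIC tumour lay 4 of the 5 16IC tumours, whereas 16IC 4 had the highest level of all 10. The genotypes differed by -0.42 on the log2 scale (SE 0.26, edgeR adjusted p = 0.494, exact permutation p = 0.0952). Without 16IC 4 it was -0.74 and the groups no longer overlapped, as for 3.14% of all genes tested.

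Igfbp4, which can keep IGFs from their receptor until the protease PAPP-A cleaves it, was at 425, 116, 267, 258 and 315 CPM in EIC 1 to 5. It was at 191, 180.0, 318, 225 and 146 CPM in 16IC 1 to 5. The groups overlapped, and EIC 1 and EIC 2 marked both ends of the range. The log2 difference was -0.38 (SE 0.32, edgeR adjusted p = 0.604, exact permutation p = 0.413) and fell to -0.18 without EIC 1.

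Igfbp7, a matrix-associated relative that binds IGFs only weakly and is common in vessels and stroma, was at 318, 99.5, 188, 503 and 175 CPM in EIC 1 to 5. It was at 117, 226, 73.0, 176 and 201 CPM in 16IC 1 to 5. EIC 4 and EIC 1 were the highest and 16IC 3 the lowest, and the groups overlapped. Its log2 difference was -0.69 (SE 0.44, 95% interval -1.66 to 0.27, edgeR adjusted p = 0.498, exact permutation p = 0.278), and it was -0.31 without EIC 4. Exons of Polr2b on the opposite strand cover 7.03% of the exonic bases of Igfbp7, and the strand setting of the counting is not given.

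Igfbp6, which prefers IGF-II, had the lowest FPKM of the binding proteins in 8 of 10 tumours, while Igfbp2 was lower in 16IC 1 (2.99 against 8.16) and 16IC 4 (4.46 against 13.0). It stood at 11.4, 5.29, 6.89, 15.4 and 7.05 CPM in EIC 1 to 5, and at 9.22, 14.6, 1.16, 14.9 and 11.4 CPM in 16IC 1 to 5. 16IC 3 was lowest by far and the groups overlapped. Its log2 difference was 0.16 (SE 0.55, edgeR adjusted p = 0.914, exact permutation p = 0.952). Its sign turned without 16IC 2 (-0.0030) or without 16IC 4 (-0.010).

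**Figure D3:**
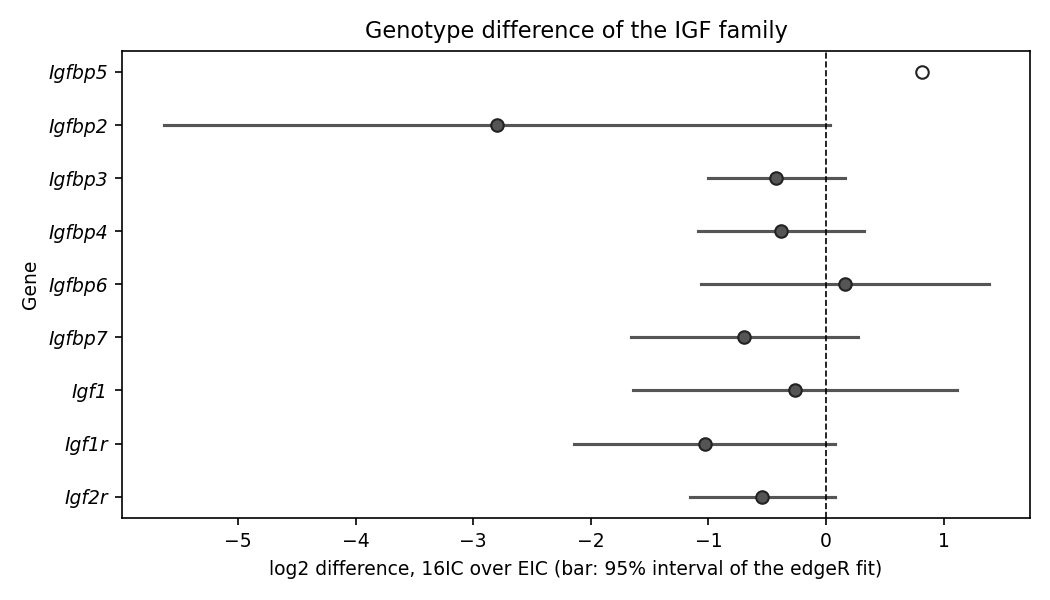
Log2 difference of 16IC over EIC (horizontal axis) for the 9 genes that passed the filter on low counts, from the edgeR fit on 5 tumours per genotype, with bars for the 95% interval. Every interval shown reaches 0; Igfbp5 (open circle) has no interval because its level chose the genes.

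Other genes of the pathway were read from a list of 19, covering the acid-labile subunit, insulin and growth hormone receptors, IRS adaptors, the PAPP-A proteases with their stanniocalcin inhibitors, GRB adaptors, Igf2 mRNA-binding proteins and H19. Of these, 17 were in the table and 11 were tested, 5 of them higher and 6 lower in 16IC, with a median log2 difference of -0.06. None passed edgeR, 2 had an unadjusted p under 0.05 (Pappa and Irs1, against 13.1% of all genes), and DESeq2 called Igf2bp2 alone, against 2.11% of all genes. None had groups without overlap. Pappa and Irs1 are named after their values were seen.

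Pappa, the protease that releases IGFs from IGFBP4, was at 6.66, 0.0594, 2.16, 2.88 and 4.70 CPM in EIC 1 to 5. It was at 0.576, 0.714, 0.426, 0.274 and 1.41 CPM in 16IC 1 to 5. EIC 2 held the lowest level of all, and the other 4 EIC tumours lay above every 16IC tumour. Pappa had a log2 difference of -2.26 (SE 0.84, edgeR adjusted p = 0.322, exact permutation p = 0.0794). Irs1, an adaptor that carries the signal from IGF1R and the insulin receptor, had a log2 difference of 0.59 (SE 0.24, edgeR adjusted p = 0.356, exact permutation p = 0.0556).

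Igf2bp2, an RNA-binding protein that takes Igf2 mRNA among its targets, was at 13.3, 0.416, 1.68, 2.00 and 0.482 CPM in EIC 1 to 5. It was at 0.144, 0.952, 0.304, 0.274 and 0.176 CPM in 16IC 1 to 5. EIC 1 stood far above the rest and 16IC 2 lay inside the EIC range. The log2 difference was -3.28 in DESeq2 (adjusted p = 0.0265), and the gene was too low for edgeR's filter. The call held in 4 of 10 repeats without 1 tumour and was lost without EIC 1 (adjusted p = 0.363), EIC 4, 16IC 1, 16IC 3, 16IC 4 or 16IC 5, with log2 differences of -3.99 to -1.62 over the repeats.

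Proteins that share the IGFBP domain, mainly the CCN matrix proteins, formed a list of 11, of which 10 were tested, 3 higher and 7 lower in 16IC, with a median log2 difference of -0.78 against -0.02 over all genes. None passed edgeR, and 3 had an unadjusted p under 0.05 (Ctgf, Crim1 and Cyr61, all lower), against 13.1% of all genes. DESeq2 called Ctgf, against 2.11% of all genes, and Ctgf alone had groups without overlap, against 2.58%. Ctgf (CCN2, a matrix protein induced by TGF-beta and YAP signalling) was at 166, 89.6, 110, 297 and 133 CPM in EIC 1 to 5. It was at 30.1, 64.7, 27.7, 46.5 and 56.0 CPM in 16IC 1 to 5. Every 16IC tumour lay below every EIC tumour. The log2 difference was -1.82 (SE 0.36, 95% interval -2.62 to -1.02), with an edgeR adjusted p of 0.215 and an exact permutation p of 0.00794, the smallest the test can give. DESeq2 gave an adjusted p of 5.19e-04 and called Ctgf in 10 of 10 repeats without 1 tumour (highest adjusted p 0.00488).

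Crim1, a membrane protein that binds BMPs, and Cyr61 (CCN1), named after their values were seen, had log2 differences of -1.54 (SE 0.55, edgeR adjusted p = 0.311) and -1.15 (SE 0.44, edgeR adjusted p = 0.332). Fibroblast markers stood beside these values at 1686 to 6559 CPM in EIC and 373 to 3277 CPM in 16IC, with 1 of 7 markers higher and 6 lower in 16IC and none at 0. Basal and myoepithelial markers ran from 38.6 to 654 CPM in EIC and from 21.9 to 198 CPM in 16IC, again with 1 of 7 higher and 6 lower. All 6 macrophage markers were lower in 16IC (sum 268 to 498 CPM in EIC, 193 to 483 CPM in 16IC), as were all 5 skeletal muscle markers (2.22 to 2120 CPM and 0.973 to 308 CPM). Other lists were more mixed in 16IC: luminal epithelium and endothelium each had 3 markers higher and 4 lower. Pericyte markers and milk genes each had 2 higher and 4 lower, and adipocyte markers 1 higher and 4 lower. Of the 2 T cell markers tested, 1 was higher and 1 lower. The part of any of these cell types in the values of Ctgf, Crim1 and Cyr61 was not tested.

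Among the 8 family genes other than Igfbp5 and Igf2, 28 pairs and 40 relations with the summed markers of luminal epithelium, basal and myoepithelial cells, fibroblasts, endothelium and pericytes were computed over the 10 tumours on log2(CPM + 1). None of the 28 pairs passed after Benjamini-Hochberg adjustment over all 68 relations. With the genotype means subtracted, the pair Igfbp6 and Igfbp7 passed by Pearson's r (0.83, adjusted permutation p = 0.0272) but not by Spearman's rho. Without that subtraction, Igf1r with the basal and myoepithelial sum was the only relation to pass by both measures. Pearson's r was 0.84 (permutation p = 5.50e-04, adjusted 0.0374) and Spearman's rho 0.93 (permutation p = 3.00e-04, adjusted 0.0204). Without EIC 1 and 16IC 4, the tumours farthest from the median of the marker sum, r was 0.83. With the genotype means subtracted, r was 0.75 (adjusted permutation p = 0.0997). When 1 tumour was left out, the relation passed by both measures only without 16IC 1 and without 16IC 4, and it was lost without any other tumour, EIC or 16IC.

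By Spearman's rho alone, 2 more relations passed. Igfbp7 with fibroblast markers had a rho of 0.89 (adjusted permutation p = 0.0256) and an r of 0.78 (adjusted permutation p = 0.0838), and r was 0.81 without 16IC 3 and 16IC 4. High values for Igfbp7 were not particular to fibroblast markers. With the basal and myoepithelial sum its r was 0.78 (adjusted permutation p = 0.0838) and its rho 0.71. With the endothelial sum its r was 0.74 (adjusted permutation p = 0.0854) and its rho 0.76. Igfbp7 passed by both measures with endothelial markers without 16IC 1, and with fibroblast markers without 16IC 4. Igf1 with endothelial markers had a rho of 0.90 (adjusted permutation p = 0.0238) and an r of 0.86 (adjusted permutation p = 0.0643). That r was 0.50 without EIC 2 and 16IC 3, so with genotypes pooled the relation rested on those tumours. With the genotype means subtracted it passed by both measures (r = 0.86, adjusted permutation p = 0.0272), and it also did without EIC 3 and without 16IC 4.

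**Figure D4:**
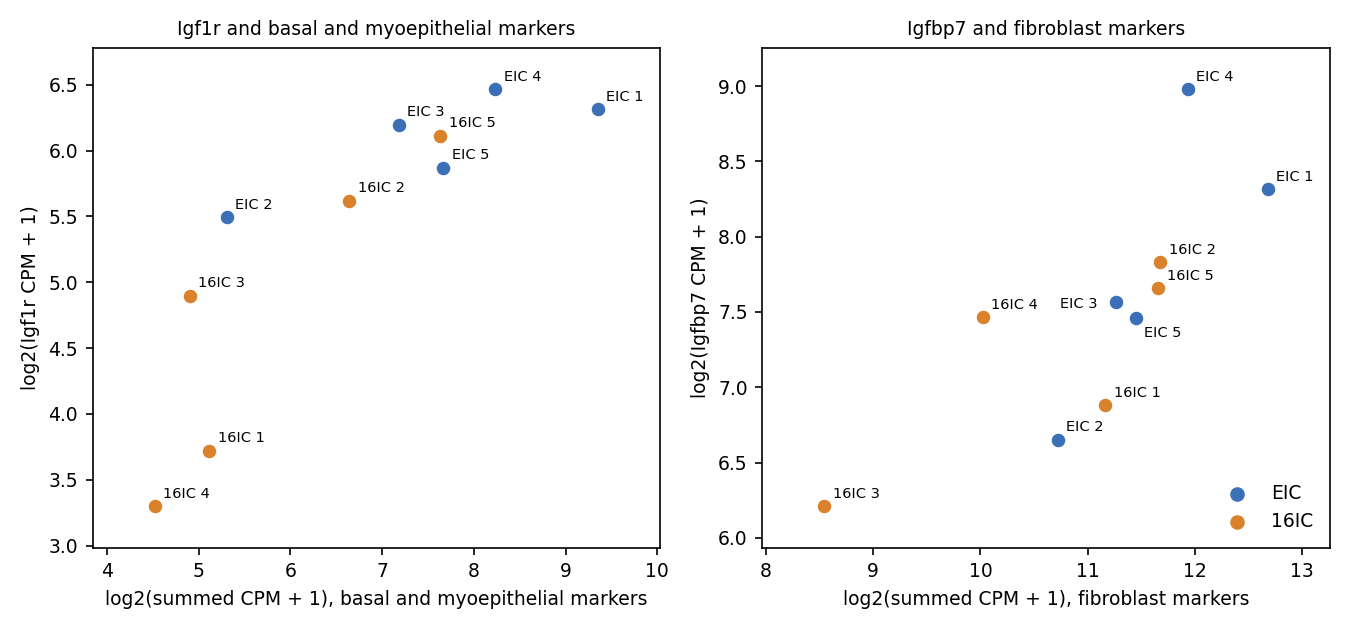
Igf1r against summed basal and myoepithelial markers (left) and Igfbp7 against summed fibroblast markers (right), both axes as log2(CPM + 1), 1 point per tumour with EIC in blue and 16IC in orange. The points rise together in both panels, with Igf1r lowest in 16IC 4 and 16IC 1 and Igfbp7 lowest in 16IC 3.

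The same 4 tumours, EIC 2, 16IC 1, 16IC 3 and 16IC 4, held the 4 lowest levels of Igfbp2 and of Igf1r. This shared set was seen in the values and not tested. As a pair over the 10 tumours, Igfbp2 and Igf1r did not pass. Their r was 0.75 (adjusted permutation p = 0.0854) and their rho 0.68 (adjusted permutation p = 0.214). For Igfbp2 the 4 tumours reached 21.2 CPM at most, and the next tumour was at 72.9 CPM. For Igf1r they reached 44.1 CPM, and the next tumour was at 48.2 CPM. These tumours also held the 4 lowest levels of the luminal markers Krt19, Krt8, Cdh1 and Cldn7. Krt19 was at most 3.53 CPM in them against 233 CPM in the next tumour. The gap was narrow for Krt8 (895 against 899 CPM) and Cldn7 (236 against 243 CPM). Of the basal and myoepithelial markers, Krt14, Krt17, Trp63 and Oxtr were also lowest in these 4 tumours. Krt5, Acta2 and Myh11 were lowest in other sets. The other luminal markers did not follow: Epcam was highest in these same 4 tumours (1597 to 2085 CPM), and Krt18 and Cldn3 were highest in 16IC 3. The luminal sum was lowest in another set (EIC 2, EIC 3, 16IC 1 and 16IC 4). Summed basal and myoepithelial markers were at most 38.6 CPM in EIC 2, 16IC 1, 16IC 3 and 16IC 4, against 98.8 CPM in the next tumour. The gap was narrow for summed fibroblast markers (at most 2298 against 2460 CPM) and macrophage markers (at most 268 against 275 CPM). Single markers of these 2 lists were divided. Col1a1, Col1a2 and Pdgfra were lowest in these 4 tumours, but Col3a1, Dcn, Lum and Fap in other sets. Dcn was at 117 CPM in 16IC 4 and 102 CPM in 16IC 1, against 27.2 CPM in EIC 3. Adgre1 and Mrc1 were lowest in these 4 tumours, but Cd68, Csf1r, C1qa and C1qb in other sets. The other 7 family genes that passed the filter on low counts did not share this set of lowest tumours. The part of these cells in the levels of Igfbp2 and Igf1r was not tested.

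The genes whose levels ranked the 10 tumours most like each member were found by Spearman's rho among 12406 genes, as a measure of likeness with no test. Each rho was picked as among the highest of that many over 10 tumours, so its size is raised by the choice. For Igfbp5 these were Kcnj10 (0.95), Med7 (0.95) and Ubqln4 (0.93), and for Igfbp2 they were Opn3 (0.99), Rasd1 (0.98) and Brap (0.98). Fap, a fibroblast marker, ranked first for Igfbp7 (0.99), before Arhgdib and Mamdc2 (0.96 each). Igf1r was closest to Ano6 (0.99), Apbb1ip and P4ha3 (0.98 each), and Igf2r to Agap1 (0.92), Dhx38 and Rad54l2 (0.90 each). Igfbp3 ranked the tumours exactly as Apold1 did (1.0), followed by Msantd3 (0.92) and Ttyh2 (0.85). Igf1 was closest to Thbd, Pgm5 and Ltb (0.95 each), Igfbp6 to Cdc26 (0.98), Cfap298 (0.96) and Cd34 (0.93), and Igfbp4 to Slc25a13 (0.88), Lpxn (0.87) and Rc3h1 (0.85).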

How the data were processed

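The tools used with GRCm38 (mm10), per the submitters' processing notes, were STAR, HTSeq, Trimmomatic, limma and edgeR. Not given in the sources used here are their versions, the annotation release, the strand setting and the treatment of reads that map to several places. The authors deposited raw counts per gene and tumour, FPKM, a signal of counts normalized by 1 factor per library, gene length, and log2 fold changes with p-values of 16IC over EIC. To 3 digits, the deposited values of Ctgf (-1.82, adjusted p = 5.19e-04) and Igfbp2 (-2.81, adjusted p = 0.208) equal those of DESeq2 here. DESeq2 is not among the tools named in the notes. Counts were tested. FPKM served to compare genes within a tumour. The remaining columns were only checked, and 0 per-sample columns were left out. Positions equal those of GENCODE release M21 for all 10 genes.

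Groups come from the genotype labels, with no batch given. No library was a duplicate of another in its group: even 16IC 2 and 16IC 5, the most alike, had a chi-square of 24.2 per degree of freedom, far above sampling noise. Depth was 14813940 to 16947400 counts, and low genes rest on few counts (19 at most in a library for Igf2). Counts were tested with edgeR 4.0.16 in R 4.3.3 (TMM, filterByExpr with a minimum count of 10, robust quasi-likelihood fit, genotype as the only term), with Benjamini-Hochberg adjustment over 14915 genes; 11148 were not tested. The scripts were checked on simulated data. Single genes also had exact permutation tests of mean log2(CPM + 1), and correlations had 100000 permutations (SciPy 1.17.1). Alternatives were other scalings and filters, DESeq2 1.42.0, limma 3.58.1 voom with quality weights, subtracted genotype means, CPM for FPKM, and leaving out each tumour. Leaving out tumours for DESeq2, shares, overlap counts and correlations was chosen after seeing the data.

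The genes and lists were chosen with earlier results of these data known. By rule the text names all 10 genes, list genes called by either tool (otherwise the 3 with the smallest p), the most counted gene per tumour, the 3 genes most like each member (mean log2 CPM of at least 1, no predicted-gene name) and markers beside a member. Pappa, Irs1, Crim1, Cyr61 and H19 are named outside this rule, after their values were seen. Igfbp1 and Ins2, also listed, were not analysed here. The sums of the other marker lists over tumours were milk genes (4157 to 51928 CPM), endothelium (73.3 to 229 CPM), pericyte (209 to 685 CPM), adipocyte (10.6 to 219.8 CPM), macrophage (193 to 498 CPM), T cell (0.713 to 14.8 CPM) and skeletal muscle (0.973 to 2120 CPM).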

Additional observations from a re-analysis of the deposited data

Results flagged for a closer look

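In groups of 5 tumours, a tumour was set apart when its gap to the nearest other exceeded 0.71 of the group's range. Of 46 groups looked at, 6 had such a tumour, and chance gives about 1 in 20. Igfbp3 was at 371 CPM in EIC 4, against 311 to 322 CPM in the other EIC tumours. Igf2r was at 640.1 CPM in EIC 3, against 263 to 347 CPM in the other EIC tumours, and at 398 CPM in 16IC 1, against 205 to 240 CPM in the other 16IC tumours. Igf2bp2 was at 13.3 CPM in EIC 1, against 0.416 to 2.00 CPM in its group, and at 0.952 CPM in 16IC 2, against 0.144 to 0.304 CPM. The share of Igfbp7 in the summed FPKM of the binding proteins was 11.8% in 16IC 4, against 3.30% to 5.13% in the other 16IC tumours.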

How the results depend on the processing

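No paired analysis was possible because the labels give the tumours no shared replicate numbers. The number of genes called between genotypes was 0 with edgeR under every scaling and filter and with voom, 356 with DESeq2, and 0 to 2 with edgeR when 1 tumour was left out (1 without EIC 1, 2 without EIC 2). None of the 8 family genes tested (without Igfbp5 and Igf2) was called under any of these. Ctgf was called with DESeq2 alone (-1.82, adjusted p = 5.19e-04, against up to 0.450 in the other fits). The sign of Igfbp6 turned with voom (-0.20), without 16IC 2 (-0.0030) and without 16IC 4 (-0.010), and that of Igf1 without EIC 1 (0.39) and without 16IC 3 (0.02). Over all tumours left out in turn, Igfbp6 ranged from -0.010 to 0.45 and Igf1 from -0.51 to 0.39. The cause was not tested. Of the same 8 genes, 0 to 1 had groups without overlap when 1 tumour was left out, against 3.14% to 6.66% of all genes. Relations passing by both measures numbered 1 with all tumours, 2 with genotype means subtracted (Igf1 with fibroblast and with endothelial markers) and 0 to 3 without 1 tumour, with none passing in 7 of 10 such repeats. Depth limits Igf2, the genes under the low-count filter and low genes that passed it, such as Pappa, at 0.0594 CPM in EIC 2.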
